A study of Mus musculus with 6 samples.

Results

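Krüppel-like factors are transcription factors with a run of zinc fingers at the carboxyl end that bind CACCC and GC-rich elements, and this account follows the members of the family other than Klf2 in mouse RNA. They were taken from the deposited table of FPKM values by gene symbol: Klf3, Klf4, Klf6, Klf7, Klf9, Klf10, Klf11, Klf13 and Klf16, which are 9 of its 21965 genes. The family was taken up because of its FPKM values in these libraries, above all the difference of Klf4 between the groups, so the levels, differences, intervals and calls of its members, which come from the fit over all genes, are given as a description and not as evidence. The table lists 17 Krüppel-like factor genes, of which 10 had at least 1 FPKM in at least 3 libraries: the 9 members and Klf2. All 9 members passed that filter. Klf1, Klf5, Klf8, Klf12, Klf14 and Klf15 did not pass it, and Klf17 is listed at 0 in every library. The lowest value of any member was 2.16 FPKM, for Klf11 in an Aa-flox library, and the highest value of a family gene left out by the filter was 1.52 FPKM, for Klf5 in an Aa-flox library.

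The series holds 3 libraries labelled Aa-cko and 3 labelled Aa-flox, all given as lung tissue of the mouse. The label cko is taken here to stand for a conditional knockout and flox for the floxed control, but the labels do not expand Aa, and neither they nor the series text name the deleted gene, the Cre driver, the strain, the age or any treatment of these samples. The series title names Lkb1, group 2 innate lymphoid cells (ILC2s), ferroptosis and alpha tocopherol in allergic airway inflammation. Nothing in the labels says that replicates came from separate animals, so errors and p-values measure the spread between these libraries, which may be technical. Stk11, the gene that encodes Lkb1, had 62.7, 61.7 and 53.7 FPKM in the Aa-cko libraries and 64.1, 55.8 and 51.8 FPKM in the Aa-flox libraries, and its groups overlapped. Its log2 difference was 0.05 ± 0.11 (SE), with an adjusted p of 0.721 by limma, so the transcript level gives no check of the labels. A value per gene does not show whether an exon was lost. Sftpc, the surfactant gene that defines alveolar epithelium, had 2.47, 4.49 and 4.15 FPKM in Aa-cko libraries and 4.59, 2.62 and 2.23 FPKM in Aa-flox libraries, a low level for RNA labelled as lung tissue. Scgb1a1, another lung epithelium marker, was not low. It had 136, 167 and 126 FPKM in Aa-cko libraries and 138, 125 and 111 FPKM in Aa-flox libraries. Since RNA was measured in bulk, fewer cells of a type and less RNA per cell cannot be told apart.

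FPKM scales each gene's fragments by its length and by the library's mapped fragments, so levels of different genes can be compared as levels per length. The libraries held 10608 to 10801 genes with at least 1 FPKM, and replicates of a group correlated at 0.992 to 0.996 over log2(FPKM + 1). Depth, inferred from the steps between low values, came to 14.2, 17.0 and 16.4 M fragments in Aa-cko libraries and 16.2, 16.8 and 17.5 M in Aa-flox libraries. At these depths the estimated fragments behind a member in a library ran between 157 for Klf11 and 15600 for Klf6, and Klf4 had at least 519.

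As background, the family falls into groups by the proteins its members bind. Klf4, Klf6 and Klf7 are grouped as activators, though Klf4 also represses, and Klf4 is induced in monocytes and holds lymphocytes in a resting state. Klf3 is a repressor that recruits CtBP proteins. Klf9, Klf10, Klf11, Klf13 and Klf16 recruit the Sin3 and histone deacetylase complex, with Klf10 and Klf11 also known as early response genes of TGF-beta and Klf9 as a gene induced by glucocorticoid. In T cells Klf2, the family member best known there, keeps up the egress receptor S1pr1, and Klf4 restrains proliferation.

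The 300 bases around a gene's start are shown for the members whose groups stood farthest apart upwards, Klf4, Klf6 and Klf11, and for Klf9, whose levels were alike in both groups, because the family binds CACCC and GC-box letters and is known to act on its own promoters. RefSeq sequences on GRCm38.p6, the assembly also called mm10, were found for 7 of the 9 members and run from 250 bases before the start to 50 bases after it, 5′ to 3′ on the gene's strand. The intervals are chr4:55532426-55532725 on the minus strand for Klf4, chr13:5861239-5861538 on the plus strand for Klf6, chr12:24651121-24651420 on the plus strand for Klf11 and chr19:23140976-23141275 on the plus strand for Klf9. Capitals mark letters of any motif searched on either strand: the CACCC box, the GC box GGGCGG, the cAMP response element and its core TGACG, the CArG box, the heat shock element, the FOXO site GTAAACA and the TATA box TATAAA. Neighbouring matches may overlap, and then run together in capitals.
Klf4: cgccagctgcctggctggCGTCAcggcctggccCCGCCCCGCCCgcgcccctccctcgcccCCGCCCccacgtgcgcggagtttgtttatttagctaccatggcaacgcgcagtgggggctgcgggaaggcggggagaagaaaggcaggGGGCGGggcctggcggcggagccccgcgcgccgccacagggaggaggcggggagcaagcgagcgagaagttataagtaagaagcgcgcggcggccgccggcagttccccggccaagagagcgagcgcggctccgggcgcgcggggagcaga
Klf6: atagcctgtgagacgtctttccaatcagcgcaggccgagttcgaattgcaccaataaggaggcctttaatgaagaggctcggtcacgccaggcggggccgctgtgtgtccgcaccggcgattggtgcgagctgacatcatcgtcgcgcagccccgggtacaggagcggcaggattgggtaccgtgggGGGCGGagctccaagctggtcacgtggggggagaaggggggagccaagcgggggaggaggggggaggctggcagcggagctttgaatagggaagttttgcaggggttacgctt
Klf11: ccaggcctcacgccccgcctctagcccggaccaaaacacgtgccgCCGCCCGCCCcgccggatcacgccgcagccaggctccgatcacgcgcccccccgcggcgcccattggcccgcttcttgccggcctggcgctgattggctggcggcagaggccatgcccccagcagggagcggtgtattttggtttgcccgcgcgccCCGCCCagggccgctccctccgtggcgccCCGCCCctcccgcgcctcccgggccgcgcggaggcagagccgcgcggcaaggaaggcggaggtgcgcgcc
Klf9: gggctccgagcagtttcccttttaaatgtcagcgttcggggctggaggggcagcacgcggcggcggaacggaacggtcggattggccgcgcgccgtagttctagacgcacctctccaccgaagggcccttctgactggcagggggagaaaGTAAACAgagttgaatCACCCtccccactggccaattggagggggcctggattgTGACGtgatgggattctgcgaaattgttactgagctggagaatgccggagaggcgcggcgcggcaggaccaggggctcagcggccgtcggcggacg

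The GC box was in 35.9% and CACCC in 57.7% of the promoters of this length in all 32544 RefSeq windows. Klf4 and Klf11 held 4 GC boxes each and Klf6 held 1, and these windows of Klf4, Klf6 and Klf11 held no CACCC. Klf9 held no GC box and 1 CACCC, beside 1 FOXO site, a motif in 3.66% of all windows. Klf3 held 6 GC boxes and 5 CACCC, Klf13 3 and 1, and Klf7 1 and 3. TGACG, the core of the cAMP response element, was in 20.9% of all windows and once each in those of Klf3, Klf4, Klf9 and Klf13. The full cAMP response element (1.8% of windows), the CArG box (1.64%), the heat shock element (7.89%) and the TATA box (13.6%) were in none of the 7. G and C made up 77.7% of the Klf11 window, 76.7% of that of Klf3, 74.3% of that of Klf4 and 72.0% of that of Klf13. The share was 63.3% for Klf9, 63.0% for Klf6 and 58.3% for Klf7, against a median of 53.0% over all windows. A match describes letters and is not a binding site. ATTTA, a pentamer of the AU-rich elements found in short-lived messages, occurred 1.02 times per kb in the 3′ UTR of Klf4 and 2.25 times per kb in that of Klf6, against a median of 1.38 per kb over 10277 tested genes.

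Klf4 had 94.5, 83.3 and 98.4 FPKM in the Aa-cko libraries and 10.8, 10.2 and 10.6 FPKM in the Aa-flox libraries. Every Aa-cko library stood far above every Aa-flox library, and the lowest Aa-cko value was 7.71 times the highest Aa-flox value. The means were 92.1 ± 7.84 FPKM in Aa-cko and 10.5 ± 0.328 FPKM in Aa-flox (SD, n = 3 each), a ratio of 8.77. On the log2(FPKM + 1) scale, which understates differences of low genes, the difference was 3.01 ± 0.10 (SE; 95% interval 2.79 to 3.24). Klf4 (ENSMUSG00000003032) lies at chr4:55527143-55532466 on the minus strand in mm10.

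Klf6, an immediate-early activator that is abundant in myeloid cells, was the only other member whose mean was more than doubled. It had 174, 158 and 217 FPKM in Aa-cko libraries and 76.5, 81.1 and 83.0 FPKM in Aa-flox libraries. The groups were apart, with the lowest Aa-cko value 1.90 times the highest Aa-flox value. The mean was 183 ± 30.5 FPKM in Aa-cko and 80.2 ± 3.32 FPKM in Aa-flox (SD, n = 3 each), a ratio of 2.28, and the log2 difference was 1.17 ± 0.12 (SE; 95% interval 0.89 to 1.44). Klf6 (ENSMUSG00000000078) lies at chr13:5861482-5870394 on the plus strand in mm10.

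Klf7, the third activator of this branch, did not follow them. It had 4.24, 2.93 and 5.35 FPKM in Aa-cko libraries and 3.85, 3.96 and 5.13 FPKM in Aa-flox libraries, and both the highest and the lowest value belonged to the Aa-cko group. The log2 difference was -0.06 ± 0.19 (SE; 95% interval -0.47 to 0.36). Klf7 (ENSMUSG00000025959) lies at chr1:64029447-64122282 on the minus strand and overlaps Gm26649 and Gm13748 on the other strand and Mir6899 on its own.

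**Figure D1:**
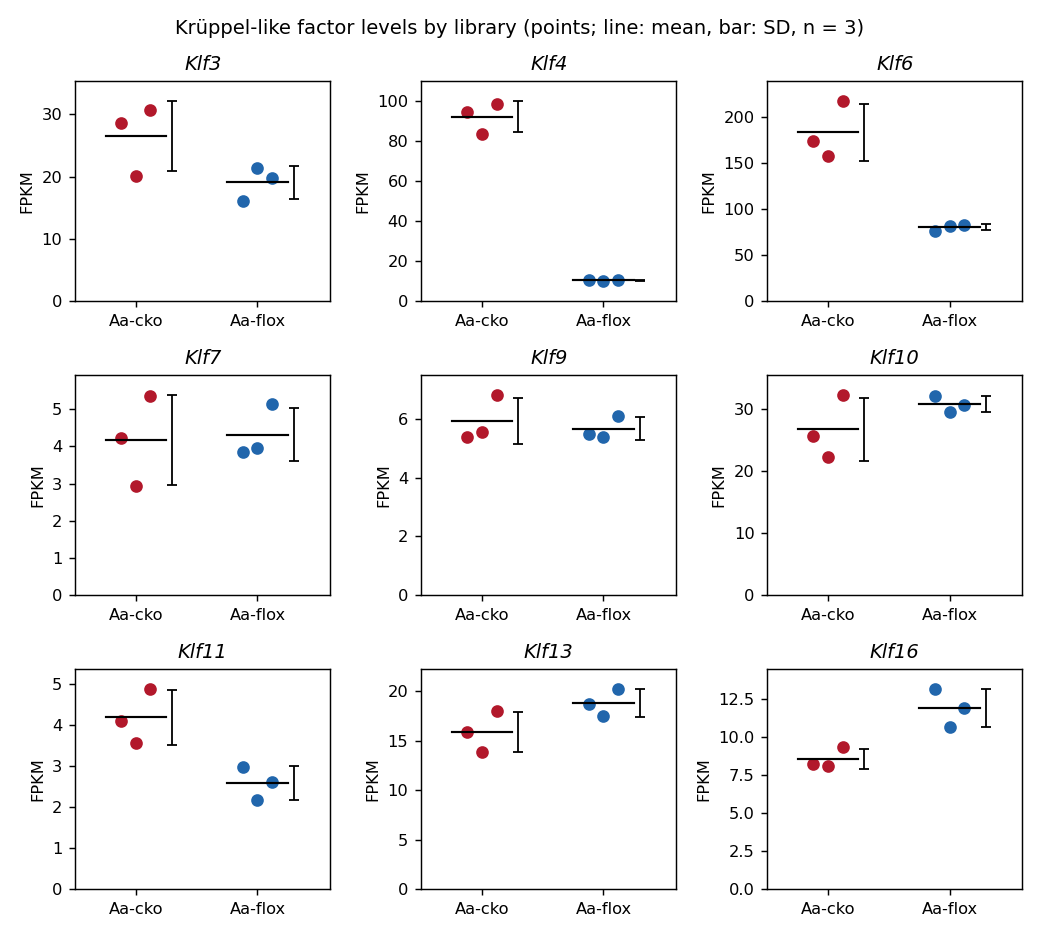
FPKM of each Krüppel-like factor other than Klf2 in every library, 1 panel per gene with its own axis starting at 0; points are libraries, Aa-cko left and Aa-flox right, and bars are group means with SD (n = 3). Klf4, Klf6 and Klf11 have all Aa-cko points above all Aa-flox points, Klf16 has them all below, and the other 5 genes overlap.

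Klf3, the repressor that recruits CtBP, had 28.6, 20.1 and 30.8 FPKM in Aa-cko libraries and 16.1, 21.3 and 19.8 FPKM in Aa-flox libraries. Aa-cko replicate 2 fell among the Aa-flox libraries, and the other 2 Aa-cko libraries stood above them. The mean was 26.5 ± 5.62 FPKM in Aa-cko and 19.1 ± 2.69 FPKM in Aa-flox (SD, n = 3 each), with a log2 difference of 0.44 ± 0.17 (SE; 95% interval 0.07 to 0.81). Klf3 (ENSMUSG00000029178; chr5:64803388-64832901, plus strand) overlaps Gm20033 on the other strand and C230096K16Rik on its own, and no source here says whether the authors counted by strand.

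The 2 TGF-beta early response members differed from each other. Klf11, a repressor through Sin3, had 4.11, 3.56 and 4.89 FPKM in Aa-cko libraries and 2.98, 2.16 and 2.61 FPKM in Aa-flox libraries, so the groups were apart at a low level. Its means of 4.19 ± 0.665 FPKM in Aa-cko and 2.58 ± 0.413 FPKM in Aa-flox (SD, n = 3 each) had a ratio of 1.62, and the log2 difference was 0.53 ± 0.15 (SE; 95% interval 0.20 to 0.87). Klf10, first described as TGF-beta inducible early gene 1, had 25.6, 22.2 and 32.3 FPKM in Aa-cko libraries and 32.1, 29.5 and 30.6 FPKM in Aa-flox libraries. Of the Aa-cko libraries, replicates 1 and 2 were below every Aa-flox library and replicate 3 above them all. The log2 difference of Klf10 was -0.21 ± 0.13 (SE; 95% interval -0.51 to 0.09). Klf11 (ENSMUSG00000020653) lies at chr12:24651274-24662789 on the plus strand and Klf10 (ENSMUSG00000037465) at chr15:38291463-38300706 on the minus strand.

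Of the other Sin3-binding members, Klf16 was lower in Aa-cko. It had 8.21, 8.10 and 9.34 FPKM in Aa-cko libraries and 13.2, 10.6 and 11.9 FPKM in Aa-flox libraries, and the groups were apart. The means were 8.55 ± 0.683 FPKM in Aa-cko and 11.9 ± 1.26 FPKM in Aa-flox (SD, n = 3 each), a ratio of 0.718, and the log2 difference was -0.43 ± 0.12 (SE; 95% interval -0.71 to -0.15). Klf16 (ENSMUSG00000035397) lies at chr10:80567124-80577321 on the minus strand.

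Klf13, known in T cells as an activator of the chemokine gene Ccl5, had 15.8, 13.9 and 18.0 FPKM in Aa-cko libraries and 18.7, 17.5 and 20.3 FPKM in Aa-flox libraries. The Aa-cko values were mostly lower, with an overlap through replicate 3, and the log2 difference was -0.24 ± 0.12 (SE; 95% interval -0.51 to 0.04). Klf9, the glucocorticoid-induced member, had 5.39, 5.56 and 6.83 FPKM in Aa-cko libraries and 5.50, 5.38 and 6.11 FPKM in Aa-flox libraries. Its groups lay on top of each other, with a log2 difference of 0.05 ± 0.13 (SE; 95% interval -0.24 to 0.35). Klf13 (ENSMUSG00000052040; chr7:63886351-63938915, minus strand) overlaps Gm27252 and E030018B13Rik on the other strand. Klf9 (ENSMUSG00000033863) lies at chr19:23141226-23168134 on the plus strand and overlaps Mir1192 on its own strand.

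**Figure D2:**
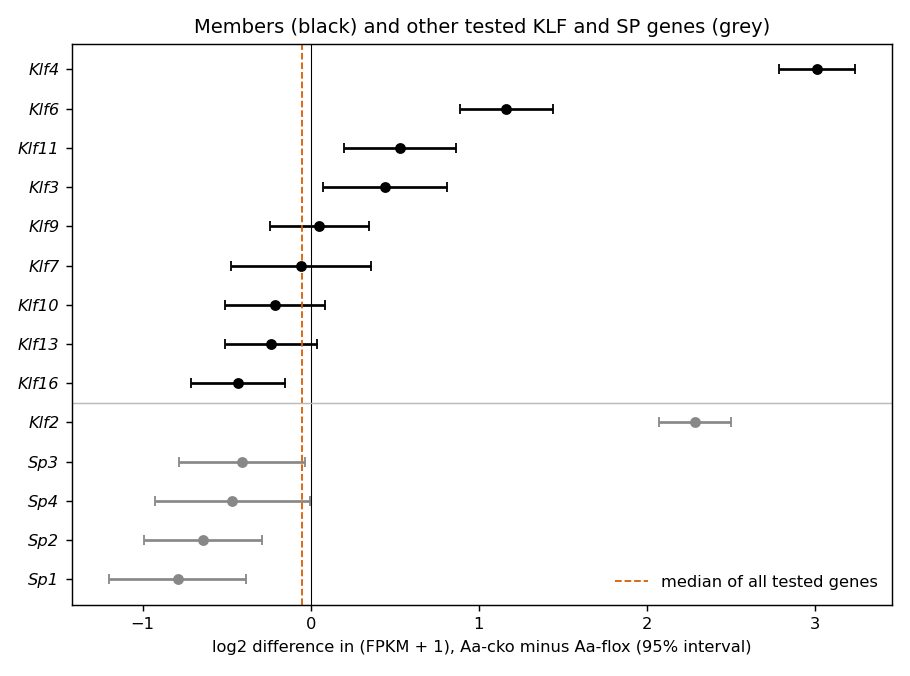
Log2 difference, Aa-cko minus Aa-flox, of log2(FPKM + 1) for the 9 members (black) and for Klf2 and the tested SP factors (grey), with points for the estimate and bars for the 95% interval, and a line for the median of all tested genes. Klf4 at 3.01 and Klf6 at 1.17 stand apart from the other members, which lie between -0.43 and 0.53.

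Across the 9 members, 3 were called higher in Aa-cko by limma (Klf4, Klf6 and Klf11), 1 was called lower (Klf16) and 5 were not called, at an adjusted p under 0.05. Over all 10849 genes tested, 42.4% were called, 19.2% higher and 23.2% lower. The groups did not overlap for 4 members, while 53.3% of all tested genes had groups that did not overlap. The members were chosen from this contrast, so nothing is read from these counts. The median log2 difference was 0.05 over the members and -0.05 over all tested genes. Klf11's call was lost without Aa-cko replicate 1 and without Aa-flox replicate 2, and Klf16's without Aa-cko replicate 1, Aa-flox replicate 1 or Aa-flox replicate 3. Klf3 was called higher without Aa-cko replicate 2, and Klf10 lower without Aa-cko replicate 3.

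The difference of Klf4 altered its place among the 9 members. By level per length in Aa-flox libraries the order ran Klf6, Klf10, Klf3, Klf13, Klf16, Klf4, Klf9, Klf7 and Klf11, and Klf4 stood 6th in each library. Among neighbours in that order, the ranges of Klf3 and Klf13 and those of Klf16 and Klf4 overlapped. In Aa-cko libraries Klf4 stood 2nd in each library behind Klf6, followed by Klf10, Klf3, Klf13, Klf16, Klf9, Klf11 and Klf7, and the ranges overlapped for Klf10 and Klf3 and for Klf11 and Klf7. Klf4 made up 23.3 to 26.2% of the members' summed FPKM in Aa-cko libraries and 5.55 to 6.01% in Aa-flox libraries. Klf6 made up 48.2 to 51.3% in Aa-cko libraries and 42.6 to 44.6% in Aa-flox libraries.

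The summed level of the 9 members was 367 ± 52.9 FPKM in Aa-cko and 184 ± 5.44 FPKM in Aa-flox (SD, n = 3 each), a ratio of 1.99. Without Klf4 and Klf6 the other 7 members summed to 91.9 ± 15.5 FPKM in Aa-cko and 93.1 ± 3.04 FPKM in Aa-flox, a ratio of 0.987. The 7 sums ran between 76.4 and 107 FPKM in Aa-cko libraries, a range that holds all Aa-flox sums, between 90.5 and 96.4 FPKM. The higher total of the 9 members, which leaves out Klf2, was thus held by Klf4 and Klf6.

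**Figure D3:**
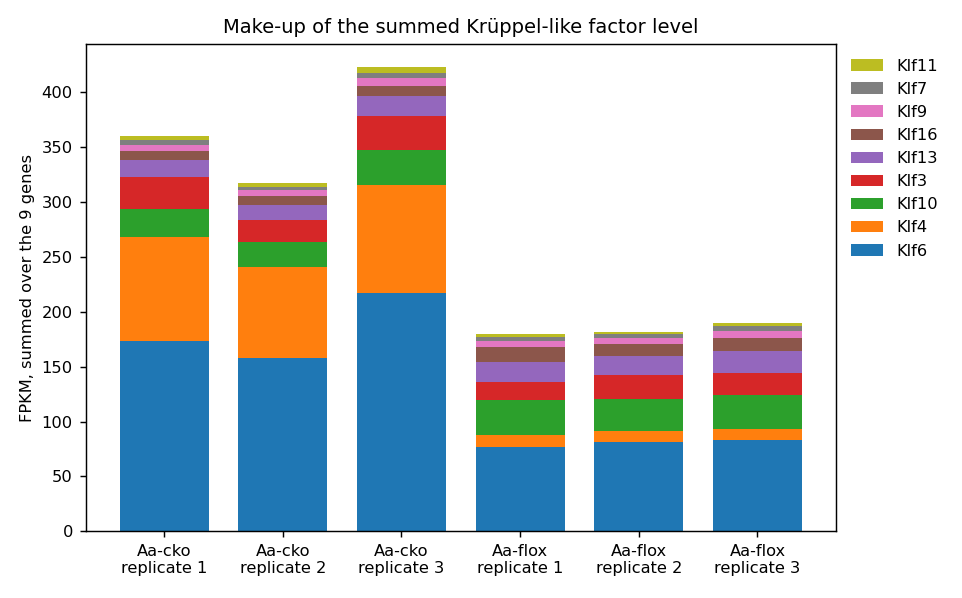
Summed FPKM of the members in each library, Aa-cko left and Aa-flox right, on an axis starting at 0, stacked by gene with Klf6 at the base and Klf4 above it. The Klf6 and Klf4 segments are taller in Aa-cko, and the other 7 segments together overlap, at 76.4 to 107 FPKM in Aa-cko and 90.5 to 96.4 FPKM in Aa-flox.

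The Aa-cko libraries spread in the same way for nearly all members. Aa-cko replicate 3 had the highest Aa-cko value for 9 of 9 members and replicate 2 the lowest for 8 of 9, Klf9 being the exception. Over all tested genes replicate 3 was the highest of the Aa-cko libraries for 42.4% and replicate 2 the lowest for 44.8%. Among the Aa-flox libraries replicate 2 was the lowest for 6 of 9 members, replicate 1 for the other 3 and replicate 3 for none, while the highest value was shared among them (4 in replicate 1, 1 in replicate 2 and 4 in replicate 3). The log2 gap between Aa-cko replicates 3 and 2 had a median of 0.37 over the members, with 0.69 for Klf7 and 0.59 for Klf3, whose exons cover 8131 and 11243 bases, and 0.18 for Klf16, whose exons cover 2674 bases. The same gap went with exon length over all tested genes, with a Spearman correlation of 0.551 across 10829 genes of these 2 libraries, which are not independent points. Its median was 0.21 for genes with over 4 kb of exons and -0.13 for shorter ones. The log2 difference between Aa-cko and Aa-flox also went with exon length, with a Spearman correlation of -0.24 over the same genes. The median of that difference was -0.14 for genes with over 4 kb of exons and 0.07 for shorter ones.

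Once a smooth trend with exon length was taken out of each library, Klf3 had a log2 difference of 0.62 ± 0.12 (SE) and was called higher, and Klf4 (2.997), Klf6 (1.23), Klf11 (0.59) and Klf16 (-0.48) kept their calls. This alternative was chosen after the spread had been seen. The 4 uncalled members Klf7, Klf9, Klf10 and Klf13 had differences of 0.09, 0.13, -0.16 and -0.10 and remained uncalled. Klf3 was also called under upper-quartile scaling, so its call turned on the library left out, the scaling and the treatment of length.

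**Figure D4:**
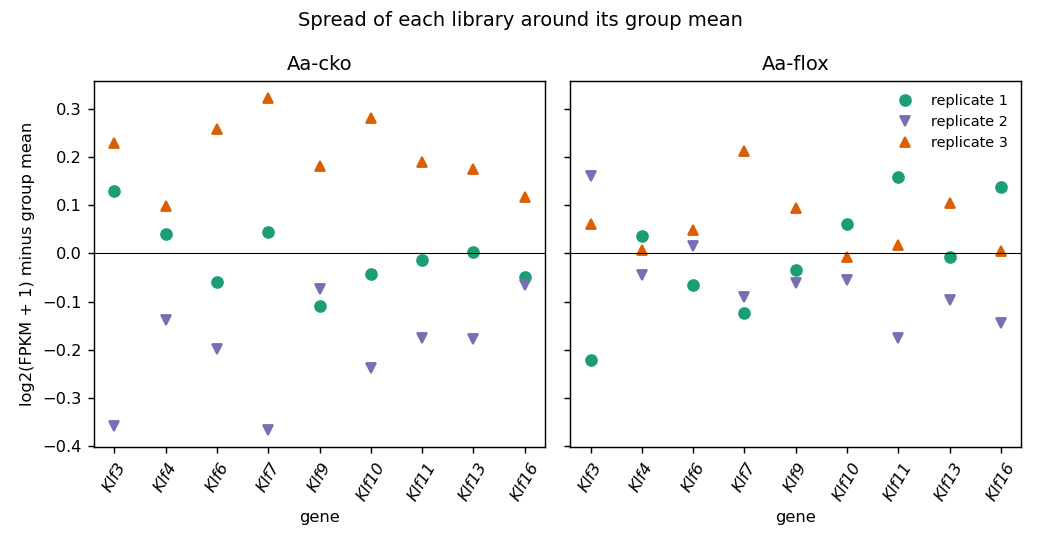
Deviation of each library from its group mean in log2(FPKM + 1), for each member, Aa-cko panel left and Aa-flox panel right. Aa-cko replicate 3 lies highest for all 9 members and replicate 2 lowest for 8, while the Aa-flox replicates change order between genes.

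Klf2, the family gene left out of the members, had 121.7, 117.5 and 126.7 FPKM in Aa-cko libraries and 25.8, 24.6 and 22.3 FPKM in Aa-flox libraries. Its log2 difference of 2.29 ± 0.10 (SE) lay between those of Klf4 and Klf6. With Klf2 counted in, the family summed to 489 ± 57.5 FPKM in Aa-cko and 208 ± 3.67 FPKM in Aa-flox. Distances to Klf4 were taken between log2(FPKM + 1) profiles over the 6 libraries, each centred on its mean. Only tested protein-coding genes were searched, without predicted genes and clones. The 5 nearest to Klf4 were S1pr1 (0.383), Klf2 (0.907), Hspa1a (1.16), Alox5 (1.23) and Arrdc3 (1.30). S1pr1, the receptor that lets lymphocytes leave tissue, had 67.0, 57.1 and 69.1 FPKM in Aa-cko libraries and 5.19, 6.82 and 6.27 FPKM in Aa-flox libraries, the profile most like that of Klf4. Hspa1a encodes an inducible heat shock protein, Alox5 the 5-lipoxygenase and Arrdc3 an arrestin-domain protein. They were named for their likeness to Klf4 in these libraries, so the distances are a description.

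The SP factors share the zinc fingers and the GC box with the family. Of 9 in the table, 4 were tested and 2 were called lower in Aa-cko. Sp1, a general activator at GC boxes, had 15.7, 11.02 and 17.4 FPKM in Aa-cko libraries and 22.6, 23.6 and 32.2 FPKM in Aa-flox libraries, and fell by 0.79 ± 0.18 (SE) on the log2 scale (adjusted p = 0.00671, limma). Sp2 had 12.3, 8.95 and 14.5 FPKM in Aa-cko libraries and 18.8, 17.7 and 19.8 FPKM in Aa-flox libraries, and fell by 0.64 ± 0.16 (adjusted p = 0.00948, limma). The groups were apart for both genes. Sp3, which had a log2 difference of -0.41 ± 0.17, and Sp4, with -0.47 ± 0.21, did not pass (adjusted p = 0.0751 and 0.0949, limma); without Aa-cko replicate 3 all 4 were called lower. The median over the 4 was -0.55, against -0.05 over all tested genes. With the length trend removed, Sp1, Sp2, Sp3 and Sp4 had differences of -0.64, -0.63, -0.33 and -0.36, and Sp1 and Sp2 kept their calls.

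Among 21 cofactors and turnover factors of the family, all tested, 1 was higher and 10 were lower in Aa-cko, with a median log2 difference of -0.12. The corepressor Ctbp2, a partner of Klf3, rose by 0.66 (adjusted p = 0.015, limma), and its near relative Ctbp1 fell by 0.49 (adjusted p = 0.00541). Ctbp1 was the more abundant, with means of 61.7 FPKM in Aa-cko and 87.2 FPKM in Aa-flox. Ctbp2 had means of 5.55 FPKM in Aa-cko and 3.07 FPKM in Aa-flox. The call of Ctbp2 was lost without Aa-cko replicate 1 (adjusted p = 0.0624) and, narrowly, without Aa-flox replicate 3 (0.0504). Of the Sin3 complex, the scaffold Sin3a fell by 0.62, the deacetylase Hdac1 by 0.60 and the histone-binding subunit Rbbp7 by 0.83, whereas Sin3b had a difference of 0.05 and was not called. Fhl2, a LIM-domain cofactor, fell by 1.18. The call of Sin3a was lost without Aa-flox replicate 3 (adjusted p = 0.0583, limma) and without the filter on low values (0.0571).

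Klf2 and Klf4 are known to be induced through the kinase Mapk7 (ERK5), its upstream kinase Map2k5 and MEF2 factors, and Klf2 in T cells by Foxo1. Of 13 tested genes of these routes, 1 was higher and 3 were lower, with a median of -0.14. Foxo1 had 16.1, 12.8 and 19.9 FPKM in Aa-cko libraries and 61.4, 51.2 and 64.2 FPKM in Aa-flox libraries, and fell by 1.81 ± 0.16 (SE; adjusted p = 5.41e-05, limma). Hdac7, a deacetylase that holds MEF2 in check, fell by 1.26, and Mef2a by 0.83. Mef2c rose by 1.11, with 6.76, 4.89 and 6.95 FPKM in Aa-cko libraries and 1.73, 3.04 and 2.28 FPKM in Aa-flox libraries. The kinases Map2k5 and Mapk7 were not called, with differences of -0.28 and -0.19. The higher calls came to 2 in the alternatives in which Hdac4 or Hdac5 passed. Hdac4 passed under upper-quartile scaling (with a difference of 0.595), with the length trend removed and with replicate number as a block. It also passed without Aa-cko replicate 2 or without Aa-flox replicate 3, and Hdac5 passed without Aa-flox replicate 1.

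Klf10 and Klf11 are early targets of TGF-beta, and of 15 tested genes of that pathway 1 was higher and 4 were lower, with a median of -0.05. Smad7, an inhibitor that TGF-beta itself induces, rose by 0.87 (adjusted p = 0.00316, limma). The ligand Tgfb1 fell by 0.49, the signal carriers Smad4 and Smad3 by 0.42 and 0.40 and the corepressor Tgif2 by 0.47. The receptors Tgfbr1 and Tgfbr2 were not called (0.32 and -0.44). With the length trend removed or Aa-cko replicate 2 left out 3 genes were higher, Tgfbr1 and Tgif1 beside Smad7, and without the filter on low values 2 were higher. The lower calls came to 2 without Aa-cko replicate 1, without Aa-flox replicate 3 or without the filter, Smad3 and Tgif2 losing theirs. Both also lost their call without Aa-flox replicate 1. Smad3 lost its call as well without Aa-cko replicate 2 or Aa-flox replicate 2. It was also lost under upper-quartile scaling and without the variance trend and robust moderation.

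Klf9 is a known glucocorticoid target. Of 11 tested glucocorticoid-induced genes and the receptor, 5 were higher and 3 were lower, with a median of 0.38. Tsc22d3 (GILZ), itself also a FOXO target, rose by 1.51, Mt1 by 1.09, Mt2 by 0.92, Sgk1 by 0.80 and Dusp1 by 0.38. Fkbp5, which the receptor induces strongly, fell by 0.46, Errfi1 by 0.52 and the receptor gene Nr3c1 by 0.59. The calls of Dusp1 and Nr3c1 were lost without Aa-cko replicate 1 or Aa-flox replicate 3. Klf9 itself (0.05) and Per1 (0.05) had near-equal values in both groups.

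Of 13 tested genes reported as targets of Krüppel-like factors, 7 were higher and 1 was lower, with a median of 0.70. S1pr1 had a difference of 3.21, and the homing receptor Ccr7 rose by 0.996 and the integrin Itgb7 by 0.87. Of the genes tied to Klf4 in macrophages, Arg1 rose by 0.94, Il10 fell by 0.62 and Nos2 was not called (0.35). Smad7, which Klf2 is reported to raise, and Lgals3 rose by 0.87 and 0.70. The inhibitors of the cell cycle Cdkn1a and Cdkn1b had differences of -0.10 and 0.11, and Ccl5, the target of Klf13, had 0.12, none of them called. S1pr1 and Klf2 were known from earlier results of these files when the list was drawn up, so its count is no independent evidence of a direction.

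Of 9 quiescence factors Btg1 rose by 0.48, Foxo1 fell and 7 were not called, with a median of 0.03. All 12 proliferation genes were lower in Aa-cko, with a median of -0.85. Among them E2f1 (-0.39) lost its call under upper-quartile scaling. It also lost it in each fit that left out a library, except the fit without Aa-cko replicate 3. Cdk1 fell by 1.498, Ccnb1 by 1.26 and Bub1 by 1.03.

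Klf4 and Klf6 are also immediate-early genes that answer stress and tissue handling. Of 21 immediate-early and heat shock genes 11 were higher and 6 lower, with a median of 0.38, and they did not move as 1 group. The heat shock genes of the list were all called higher, and the immediate-early genes went both ways. Hspa1a rose by 3.91 and Hspa1b by 4.10, a pair of near-identical genes between which fragments can be split wrongly. Dnajb1 rose by 0.84, Hspa8 by 0.66, Hsph1 by 0.45 and Hsp90aa1 by 0.40. The calls of Hsph1 and Hsp90aa1 were lost in several alternatives, among them each fit that left out an Aa-flox library. Jun rose by 0.85 and Fos by 0.33 (adjusted p = 0.0011 and 0.0491, limma), and the call of Fos was lost in 4 of the 6 fits that left out a library. That call was also lost without the filter on low values, without the variance trend and robust moderation, and with the length trend removed. Leaving the most abundant genes out of the scaling lost it too, and the groups of Fos overlapped. Egr1 fell by 1.35, Egr2 by 1.56 and Nr4a1 by 1.43, and Junb fell by 0.48. Ier2 fell by 0.76 and Ier3 by 0.31, and the call of Ier3 was lost in several alternatives. The higher calls came to 7 without Aa-flox replicate 3. Their part in the values of Klf4 and Klf6 was not tested.

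**Figure D5:**
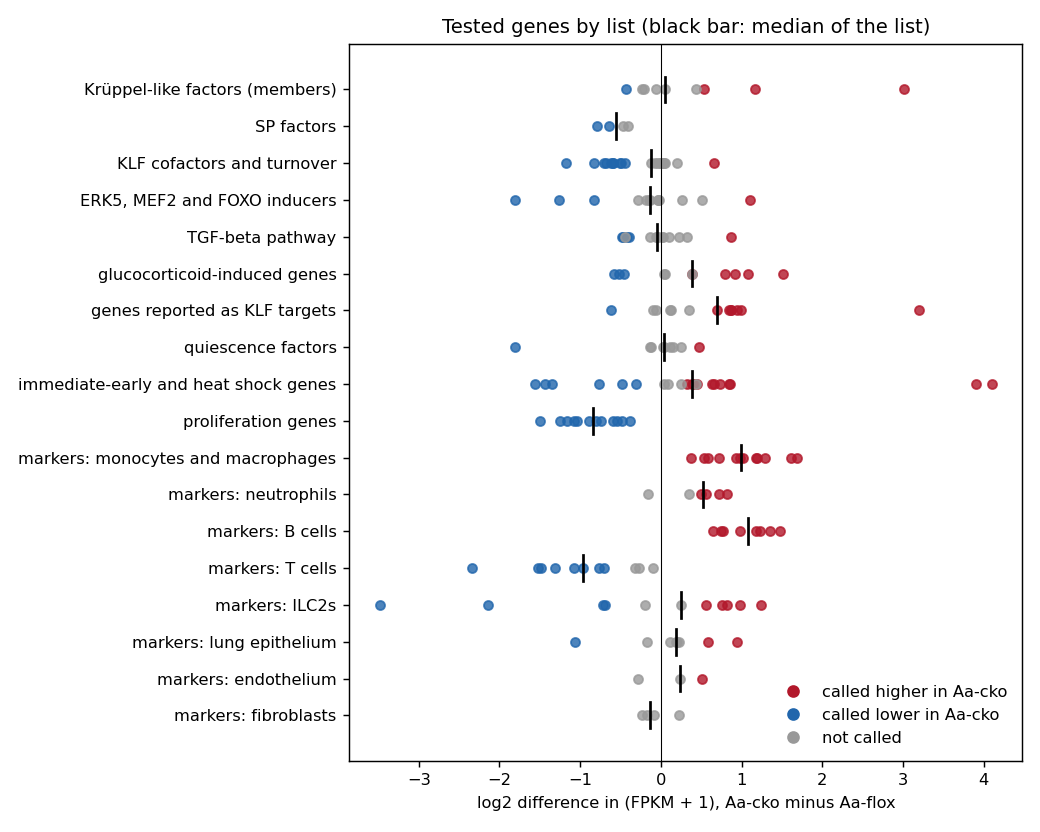
Log2 difference, Aa-cko minus Aa-flox, of every tested gene in each list, 1 row per list, with a black bar for the list's median, a line at 0 and colours for called higher, called lower and not called. Proliferation genes lie below 0 and monocyte, macrophage and B cell markers above it, and the cofactor, ERK5 and TGF-beta lists spread to both sides.

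Markers of several cell types differed between the groups, and their part in the members' values was not tested. Of the monocyte and macrophage markers 12 of 12 tested were higher, with a median of 0.996 and a highest difference of 1.68 for Lyz2. Their summed level was 3722 to 4506 FPKM in Aa-cko libraries and 1952 to 2294 FPKM in Aa-flox libraries, a ratio of 1.89. Csf1r, the receptor for the macrophage growth factor, rose by 1.29.

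B cell markers were higher for 8 of 8 tested, with sums of 166 to 209.5 FPKM in Aa-cko libraries and 71.8 to 94.7 FPKM in Aa-flox libraries. Neutrophil markers were higher for 4 of 6 (Csf3r, Cxcr2, Ly6g and S100a9), with sums of 3453 to 5102 FPKM in Aa-cko libraries and 2686 to 3421 FPKM in Aa-flox libraries. Without Aa-cko replicate 1, 2 were higher, and with the length trend removed 2 were higher and Retnlg was lower (-0.46; adjusted p = 0.0025, limma). T cell markers were lower for 8 of 11, with sums of 825 to 879 FPKM in Aa-cko libraries and 1544 to 1887 FPKM in Aa-flox libraries, and the largest fall among them was 2.34 for Cd5. Of 11 ILC2 markers 5 were higher (Hs3st1, Il7r, Il17rb, Klrg1 and Rora) and 4 lower (Il13, Il5, Il1rl1 and Gata3), with sums of 267 to 306 FPKM in Aa-cko libraries and 382 to 457 FPKM in Aa-flox libraries. These sums include the cytokine genes Il13, with means of 7.51 FPKM in Aa-cko and 95.4 FPKM in Aa-flox, and Il5, with 15.8 and 73.9 FPKM. The lower sums therefore do not describe the ILC2 markers as a set.

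Lung epithelium markers were higher for Cdh1 and Sftpb and lower for Epcam, of 8 tested, with sums of 152 to 191 FPKM in Aa-cko libraries and 133 to 164 FPKM in Aa-flox libraries. Most of these sums was Scgb1a1, which was not called, with 126 to 167 FPKM in Aa-cko and 111 to 138 FPKM in Aa-flox libraries. The sums therefore do not describe the epithelial markers as a set. Of 6 endothelial markers, 3 were tested and Vwf was higher, with sums of 24.4 to 34.4 FPKM in Aa-cko libraries and 32.5 to 37.2 FPKM in Aa-flox libraries. Most of these sums was Pecam1, which was not called (-0.29). It had 29.8, 20.6 and 29.2 FPKM in Aa-cko libraries and 30.0, 32.7 and 33.9 FPKM in Aa-flox libraries. The call of Sftpb was lost without Aa-cko replicate 1 or Aa-flox replicate 3, and that of Vwf without either of these or Aa-flox replicate 1. Vwf also lost its call without the filter on low values and with the most abundant genes left out of the scaling. Of 6 fibroblast markers 4 were tested and none was called, with sums of 25.5 to 30.5 FPKM in Aa-cko libraries and 26.9 to 32.6 FPKM in Aa-flox libraries. No marker of these lists was at 0 in all libraries.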

How the data were processed

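Per the labels' protocols, total RNA was purified with a column kit and libraries were built with a SMARTer mRNA-Seq kit. The authors deposited FPKM (fragments scaled by transcript length and by the mapped total) for 21965 genes in 6 libraries. The submitters' processing notes name mm10; an aligner, a counter and a strand setting were not given in the sources used here.

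Differences, Aa-cko minus Aa-flox, were fitted with limma 3.58.1 in R 4.3.3 (variance trend, robust moderation) on log2(FPKM + 1) over the 10849 genes that reached 1 FPKM in 3 or more libraries. The Benjamini-Hochberg adjustment ran over all of these, and genes under 0.05 are called. Python 3.11.15 with pandas 2.3.3 handled the tables. Steps between low values gave each library's depth; at that depth 43.9 to 45.9% of the values were within 0.1 of a whole fragment (20.0% would be by chance), so no count test was run. GENCODE M21 gave positions and exon lengths. The fit was also run on simulated data without a trend with exon length, so that run does not show how the fit does where such a trend is present.

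The members and the 18 gene lists (207 entries, all in the table) were chosen with earlier results of these data known. Named are all members, the tested SP factors, Klf2, Stk11, from each list the 3 genes of smallest p and those that make up counts of 5 or fewer, and the 5 genes nearest to Klf4; further list members, mostly uncalled ones, were named after their values were seen. Alternatives covered the pseudocount, the filter, scaling, the variance model, a replicate block, a trend with exon length and leaving out each library. Some genes that the rule names are not reported here.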

Additional observations from a re-analysis of the deposited data

How the results depend on the processing

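Klf3, Klf4, Klf6, Klf10, Klf11, Klf13 and Klf16 kept their direction in 13 of 13 alternatives, Klf9 in 12 (log2 difference -0.04 to 0.13) and Klf7 in 9 (-0.22 to 0.13). Klf4 ran between 2.96 and 3.12, the highest with a pseudocount of 0.1, Klf6 between 1.04 and 1.26 and Klf3 between 0.33 and 0.62. Leaving out each library gave 2 to 4 members called higher and 0 to 2 called lower, 2 to 4 SP factors called lower and 3238 to 4756 calls over all genes. Under upper-quartile scaling, which moved the median of all genes by 0.08, the calls were 55.6% higher and 44.4% lower, against 45.3% and 54.7% as reported, and Klf3 was also called. The values do not show whether replicate numbers pair the samples. Same-numbered libraries had deviations that correlated at -0.018, 0.19 and 0.52, and libraries of other numbers had correlations between -0.5 and 0.36. With a replicate block 5509 genes, 4 members higher (Klf3 added) and 4 SP factors lower were called, Hdac4 brought the higher ERK5, MEF2 and FOXO genes to 2, Tgfbr1 and Tgif1 brought the higher TGF-beta genes to 3, Tgfbr2 was called lower, and not every sample correlated best with its own number. Of 933 values of the 72 other genes named by rule, 894 kept their call and direction, 5 passed only in an alternative (Sp3 and Sp4) and 34 lost their call (Smad3, Vwf, Tgif2, Ly6g, S100a9, Nr3c1, Ctbp2, Dusp1, Rora and Sftpb). Of 112 called list genes, 18 lost their call in at least 1 alternative, among them Fos and Sin3a, and 17 list genes were called only in an alternative. With 3 libraries a group and no stated animals, precision is limited by replicate number.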
